A study of Mus musculus with 9 samples.

Results

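The unfolded protein response and the integrated stress response were followed through 10 genes: Atf4, Atf3, Ddit3, Xbp1, Hspa5, Dnajb9, Herpud1, Trib3, Asns and Chac1. They were chosen by name as regulators and target genes of these responses, each read from the brightest probe set annotated to its symbol alone. All 10 were measured, by 1 probe set each, among 19938 genes and 28939 probe sets tested. Whole liver RNA was hybridised to 9 Affymetrix gene arrays, and the question put to these genes was whether they differ between wild type livers, livers that lack NEMO in hepatocytes and livers that lack p21 as well. NEMO, the product of Ikbkg, is needed by the IκB kinases to switch on NF-κB. Cdkn1a codes for p21, which inhibits cyclin-dependent kinases.

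Each of the 3 genotypes had 3 arrays from male C57/BL6 mice aged 8 to 9 weeks on standard chow. The wild type mice were the control. The NEMO knockout (NEMOΔhepa) lacked NEMO in hepatocytes only, so every other liver cell kept the gene, and the driver of the deletion is not given in the sources used here. The labelled double knockout carried the same hepatocyte deletion on a constitutive p21-/- background, and no group lacked p21 alone. Whether the replicates came from separate litters or cages is not given in the sources used here, so p-values measure only the spread between these samples. The comparisons share arrays and are not independent of each other.

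In the unfolded protein response, 3 sensors in the membrane of the endoplasmic reticulum (ER), encoded by Ern1, Eif2ak3 and Atf6, react to unfolded protein. IRE1 (Ern1) splices the Xbp1 transcript, PERK (Eif2ak3) slows translation by phosphorylating eIF2α, and ATF6 is cut to release a transcription factor. Phosphorylated eIF2α, which other kinases also produce when amino acids or haem run short or viral RNA appears, favours translation of ATF4, and this branch is called the integrated stress response. Hepatocytes secrete large amounts of plasma protein and depend on the chaperones and degradation machinery that XBP1 and ATF6 keep supplied.

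The promoter letters known to recruit these factors are shown first, for the members whose windows hold them. Windows of 300 bases, from 250 before to 50 after the transcription start in RefSeq (GRCm38.p6), were searched on both strands, and all 10 members had 1 window. The ER stress element ERSE (CCAAT, 9 bases of any kind, then CCACG) was in 39 of 32851 windows (0.119%), and among the members in Hspa5. ERSE-II (ATTGG, 1 base of any kind, then CCACG) was in 12 windows (0.0365%), and among the members in Herpud1. The amino acid response element CARE (TGATGNAA), bound by ATF4 with C/EBP proteins, was in 1304 windows (3.97%) and in 5 members, Atf3, Herpud1, Trib3, Asns and Chac1. UPRE (TGACGTGG, 0.676% of windows) and CRE (TGACGTCA, 1.79%) were in none of the members' windows, and Atf4, Ddit3, Xbp1 and Dnajb9 had no match to any motif. ERSE and ERSE-II share the letters CCACG and the CCAAT box, and UPRE ends in letters found in the reverse complement of both, but no matches overlapped in a member. A match is a description of letters and does not show that a factor binds. The stretches below run 5′ to 3′ along the gene, with the match in capitals and 15 bases on either side. The CARE matches of Herpud1, Atf3 and Chac1 are in reverse, so their capitals are the reverse complement of the letters given above. The Hspa5 stretch lies at chr2:34772010-34772058 on the plus strand, and the Herpud1 stretches at chr8:94386362-94386402 (ERSE-II) and chr8:94386302-94386339 (CARE), plus strand. Those of Asns (chr6:7693210-7693247) and Atf3 (chr1:191183421-191183458) are on the minus strand, and that of Chac1 (chr2:119351034-119351071) is on the plus strand. The Trib3 match lay after the start and is not printed.
Hspa5 ERSE: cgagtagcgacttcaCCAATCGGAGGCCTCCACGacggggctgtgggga
Herpud1 ERSE-II: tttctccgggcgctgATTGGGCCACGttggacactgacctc
Herpud1 CARE: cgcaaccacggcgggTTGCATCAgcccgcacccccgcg
Atf3 CARE: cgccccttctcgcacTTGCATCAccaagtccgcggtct
Asns CARE: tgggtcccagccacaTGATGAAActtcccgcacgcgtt
Chac1 CARE: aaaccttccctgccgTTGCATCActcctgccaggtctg

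The tissue and the genotypes were checked before the members. Hepatocyte markers (5 of 7 measured, Alb among them) had list means of 13.40 to 13.51 in wild type, 13.35 to 13.46 in the NEMO knockout and 13.35 to 13.54 in the labelled double knockout on the log2 scale, and none was called. Ikbkg differed from wild type by -0.52 (SE 0.11, limma adjusted p = 0.0184) in the NEMO knockout and by -0.60 (adjusted p = 0.00835) in the labelled double knockout. The first of these calls was lost without wild type replicate 2 or 3 (adjusted p = 0.0625 and 0.0729) or NEMO knockout replicate 1 or 3 (0.0524 and 0.0647). The Cdkn1a signal, from a probe set annotated jointly with 4930567H12Rik, was not reduced where p21 should be missing: group means were 8.67, 10.10 and 10.78. It was called higher than wild type in the labelled double knockout (2.11, SE 0.45, limma adjusted p = 0.0194), a call lost in 5 of 17 alternative fits. In the NEMO knockout it was not called (1.43, adjusted p = 0.101). Where the probes of this set lie relative to the deleted part was not analysed here. Every direction for the labelled double knockout rests on the label. Array medians were 6.47 to 6.58, and arrays correlated at r = 0.9939 to 0.9960 within groups.

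The livers of both knockout genotypes had less Atf4 and Dnajb9 RNA and more Atf3 RNA than wild type, with Xbp1 lower as well in the labelled double knockout. In the NEMO knockout 2 of the 10 genes were lower and 1 was higher at an adjusted p under 0.05, and 7 did not pass. In the labelled double knockout 3 were lower, 1 was higher and 6 did not pass. Over all probe sets the share called against wild type was 7.68% for the NEMO knockout (2.02% lower, 5.66% higher) and 9.32% for the labelled double knockout (3.51% lower, 5.81% higher). The median difference of the 10 genes was -0.43 and -0.36 on the log2 scale, beside -0.039 and -0.029 for all probe sets. Of the calls over all probe sets, 73.7% and 62.3% were higher, a split that became 52.7% and 44.1% after centring of every array on its own median and 77.9% and 69.5% after cyclic loess. Under these scalings the directions of the 10 genes were unchanged except that of Ddit3 in the NEMO knockout, which stood near 0 throughout.

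**Figure D1:**
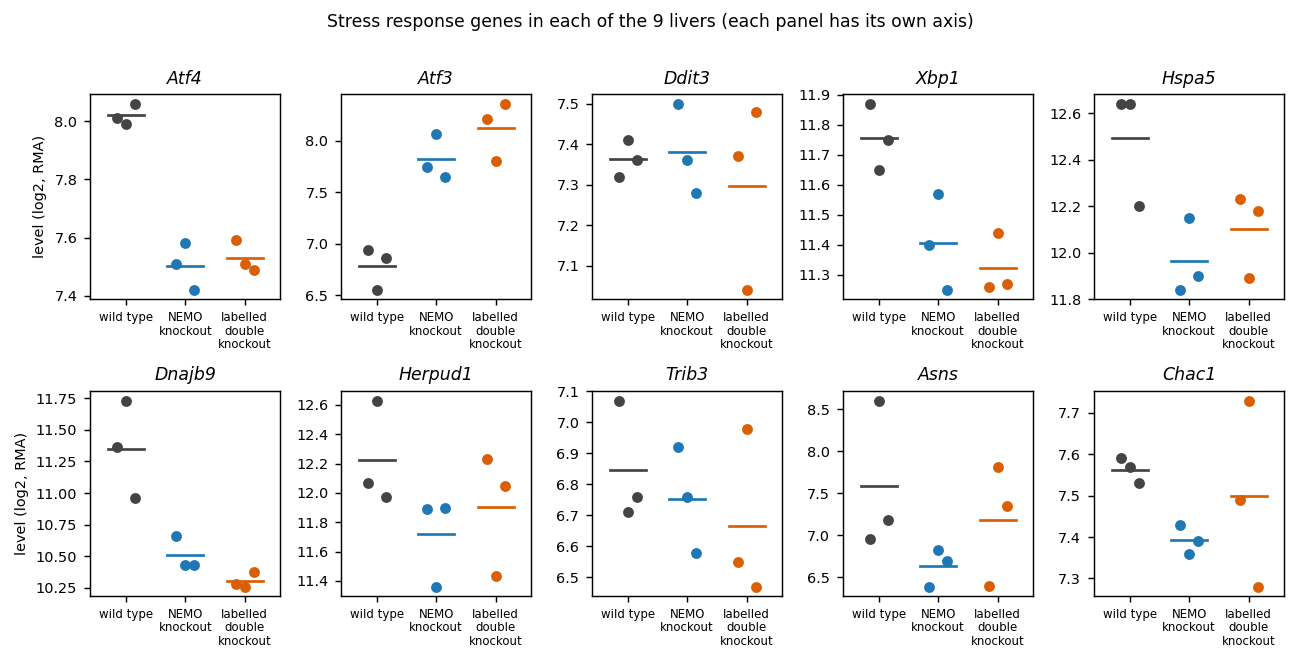
Level of each of the 10 genes (log2, RMA) in the 9 livers by genotype; points are arrays and lines are group means of 3. The knockout arrays lie below all wild type arrays for Atf4, Xbp1 and Dnajb9 and above them for Atf3, while Ddit3 and Trib3 overlap across the groups.

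Among the transcription factors, Atf4 had the most even values. ATF4 is the effector of the integrated stress response. The wild type livers had 8.01, 7.99 and 8.06, the NEMO knockout livers 7.51, 7.58 and 7.42, and the labelled double knockout livers 7.59, 7.51 and 7.49 (log2). All 6 knockout arrays were thus below all 3 wild type arrays. The NEMO knockout differed from wild type by -0.52 (SE 0.065, n = 3 per group), which is 1.43-fold lower (limma adjusted p = 0.00151). The labelled double knockout differed by -0.49 (SE 0.065, 1.40-fold lower, adjusted p = 0.00176). ATF4 is controlled largely at translation, which arrays do not measure.

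Xbp1, the transcript that IRE1 splices to yield the active factor, was 11.87, 11.65 and 11.75 in wild type. The NEMO knockout arrays had 11.40, 11.57 and 11.25, and those of the labelled double knockout 11.26, 11.44 and 11.27. Neither knockout group overlapped wild type. The difference passed the threshold in the labelled double knockout (-0.43, SE 0.10, 1.35-fold lower, limma adjusted p = 0.0242) and not in the NEMO knockout (-0.35, SE 0.10, adjusted p = 0.0668). Neither outcome held in all alternatives. In the labelled double knockout the call was lost without wild type replicate 1 or 3 (adjusted p = 0.0858 and 0.0702) or labelled double knockout replicate 1 or 3 (0.0828 and 0.0895), and in the NEMO knockout a call appeared without NEMO knockout replicate 2 (0.0451), with arrays centred on their medians (0.0366), without the dimmer probe sets (0.0413) and with a trended, robust prior (0.0382). The probe set gives 1 value for the gene, so the spliced and unspliced forms are not told apart here.

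Atf3, a repressor of the same family that many kinds of stress induce, was the only member that rose. Wild type livers had 6.94, 6.55 and 6.86, NEMO knockout livers 7.74, 8.07 and 7.65, and labelled double knockout livers 8.21, 7.80 and 8.36. The lowest knockout value stood above the highest wild type value. The increase was 1.03 (SE 0.17, 2.05-fold, limma adjusted p = 0.00533) in the NEMO knockout and 1.34 (SE 0.17, 2.52-fold, adjusted p = 0.00126) in the labelled double knockout.

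Markers of other cells and some immediate early genes moved in the same livers. The immediate early genes were listed as possible markers of tissue handling, and whether handling differed between the groups was not tested. Of 7 immediate early genes, Jun (1.11) and Junb (0.53) were higher in the NEMO knockout and Jun (1.08) in the labelled double knockout. The list mean of these genes was 7.18 to 7.65 in wild type, 7.78 to 7.85 in the NEMO knockout and 7.56 to 8.23 in the labelled double knockout. Of 10 monocyte and macrophage markers, 8 were higher in each knockout, and the list mean moved from 7.36 to 7.51 in wild type to 8.52 to 8.68 in both knockouts. Stellate cell markers were higher for 4 of 6 genes in both, T and NK cell markers for 3 and 0 of 6, neutrophil markers for 2 and 1 of 6, and cholangiocyte markers for 1 of 4 in both. No plasma or B cell marker (of 8) and no exocrine pancreas marker (of 3) was called. Their part in the Atf3 result, and in the lower values of the other members, was not tested. In whole liver, fewer cells of a type and less RNA per cell cannot be told apart.

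Ddit3 encodes CHOP, the factor tied to cell death under lasting ER stress. Its wild type values were 7.32, 7.41 and 7.36, beside 7.50, 7.36 and 7.28 in the NEMO knockout and 7.37, 7.04 and 7.48 in the labelled double knockout. The groups overlapped. The differences from wild type were 0.016 (95% interval -0.24 to 0.27, limma adjusted p = 0.957) and -0.068 (-0.32 to 0.18, adjusted p = 0.823).

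Dnajb9, which encodes the BiP co-chaperone ERdj4 and is a known target of spliced XBP1, had the largest called decrease of the members. Its levels were 11.36, 11.73 and 10.96 in wild type, 10.66, 10.43 and 10.43 in the NEMO knockout, and 10.28, 10.26 and 10.38 in the labelled double knockout. The 3 groups did not overlap, although wild type replicate 3 lay only a little above the NEMO knockout. The difference from wild type was -0.84 (SE 0.16, 1.80-fold lower, limma adjusted p = 0.0135) in the NEMO knockout and -1.04 (SE 0.16, 2.06-fold lower, adjusted p = 0.00423) in the labelled double knockout. The first call was lost without NEMO knockout replicate 2 (-0.81, adjusted p = 0.0535) or replicate 3 (-0.81, adjusted p = 0.0576).

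Hspa5 encodes BiP, the main chaperone of the ER lumen, which also holds the sensors inactive. Wild type livers had 12.64, 12.64 and 12.20, the NEMO knockout 11.84, 12.15 and 11.90, and the labelled double knockout 12.23, 11.89 and 12.18. Wild type replicate 3 was the low array of its group and fell between the labelled double knockout arrays. The differences of -0.53 (SE 0.14, limma adjusted p = 0.0568) and -0.40 (SE 0.14, adjusted p = 0.142) did not pass. Without wild type replicate 3 they were -0.68 (adjusted p = 0.0227) and -0.54 (adjusted p = 0.0459), and the first also passed with centred arrays (0.0363), without the dimmer probe sets (0.0366) and with the trended, robust prior (0.0393).

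Herpud1, a membrane protein of ER-associated degradation, varied more within groups. It read 12.07, 12.63 and 11.97 in wild type, 11.89, 11.36 and 11.90 in the NEMO knockout, and 12.23, 11.43 and 12.05 in the labelled double knockout. Replicate 2 was the highest wild type array and the lowest of each knockout group. The differences from wild type, -0.51 (SE 0.24, limma adjusted p = 0.285) and -0.32 (SE 0.24, adjusted p = 0.542), did not pass. With each array left out or the processing changed, the first ran from -0.63 to -0.31, the smallest without wild type replicate 2.

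Asns, Trib3 and Chac1, known target genes of ATF4, did not pass in either knockout. Atf3, whose window also held CARE, passed in both, as given above. Asns, asparagine synthetase, was 6.96, 8.60 and 7.18 in wild type, 6.39, 6.83 and 6.69 in the NEMO knockout, and 6.40, 7.81 and 7.35 in the labelled double knockout. Wild type replicate 2 stood far above the other arrays of its group, and labelled double knockout replicate 1 was about as low as the lowest NEMO knockout array. Its difference from wild type was -0.94 (SE 0.45, limma adjusted p = 0.277) in the NEMO knockout and -0.40 (SE 0.45, adjusted p = 0.715) in the labelled double knockout. Without wild type replicate 2 these were -0.43 and 0.11.

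Trib3, a pseudokinase that binds AKT and ATF4, had 7.07, 6.71 and 6.76 in wild type, 6.92, 6.76 and 6.58 in the NEMO knockout, and 6.55, 6.98 and 6.47 in the labelled double knockout. All groups overlapped, with differences of -0.093 (SE 0.15, limma adjusted p = 0.789) and -0.18 (SE 0.15, adjusted p = 0.597). Chac1, which degrades glutathione, was close to constant in wild type at 7.59, 7.57 and 7.53, and had 7.43, 7.36 and 7.39 in the NEMO knockout. The labelled double knockout spread around both at 7.49, 7.73 and 7.28. Its differences were -0.17 (SE 0.10, adjusted p = 0.41) and -0.060 (SE 0.10, adjusted p = 0.829).

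**Figure D2:**
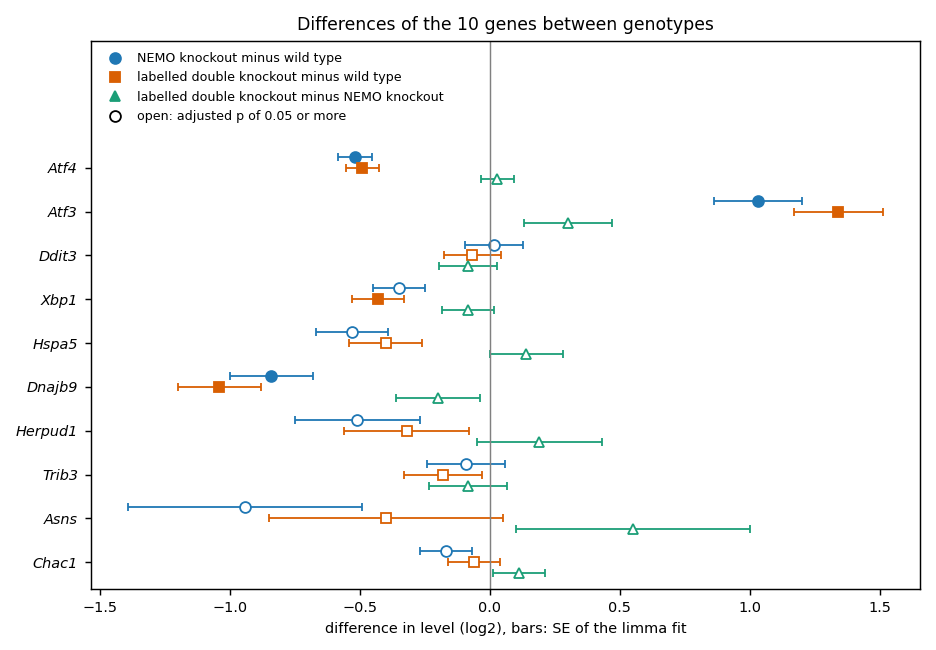
Difference in level (log2) of the 10 genes in the 3 comparisons, with the SE of the limma fit as bars; filled symbols had an adjusted p under 0.05. Atf4 and Dnajb9 lie below 0 and Atf3 above 0 in both comparisons with wild type, and no difference between the knockout groups is filled.

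By range alone, 8 of the 10 genes had NEMO knockout values that did not overlap wild type, beside 23.2% of all probe sets, and 4 had labelled double knockout values that did not, beside 25.1%. The 4 were Atf4, Atf3, Xbp1 and Dnajb9. Ddit3 and Trib3 overlapped in both comparisons. Herpud1, Asns, Hspa5 and Chac1 were separate from wild type in the NEMO knockout only by range, and for none of these 4 did the test of either comparison pass.

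Between the knockout genotypes none of the 10 genes was called, and none had an unadjusted limma p under 0.05, beside 0.197% of all probe sets called and 7.46% with such a p. Atf4 differed by 0.029 (95% interval -0.12 to 0.17), Xbp1 by -0.086 (-0.31 to 0.14) and Hspa5 by 0.14 (-0.19 to 0.46). Atf3 was 0.30 higher in the labelled double knockout (-0.07 to 0.68, limma adjusted p = 0.74). The interval of Asns was the widest, from -0.46 to 1.55 around 0.55. Dnajb9 was the one member whose knockout groups did not overlap, beside 10.7% of all probe sets, with a difference of -0.20 (-0.57 to 0.17, adjusted p = 0.854). The remaining differences were -0.084 for Ddit3, 0.19 for Herpud1, -0.086 for Trib3 and 0.11 for Chac1. These intervals leave room for changes of the size seen against wild type in Asns and Herpud1.

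Other genes of the pathway were read from 9 lists of 107 genes, of which 100 were measured. In the NEMO knockout 13 were lower, 6 were higher and 81 did not pass, with a median of -0.11. In the labelled double knockout 19 were lower, 6 were higher and 75 did not pass, with a median of -0.16. Of all 19938 genes, 2.5% were lower and 6.78% higher in the NEMO knockout, and 4.19% lower and 6.81% higher in the labelled double knockout, so the number of list genes called higher was near the share over all genes. The genes called lower belonged to the sensors, the ER machinery and the tRNA synthetases, and those called higher to the ATF4 and CHOP targets, amino acid metabolism and the ER-bound transcription factors. The count of lower genes in the NEMO knockout fell to 8 without NEMO knockout replicate 3 and rose to 20 with centred arrays or without the dimmer probe sets. In the labelled double knockout it was 8 without wild type replicate 1, 12 without labelled double knockout replicate 1 and 9 without its replicate 3.

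**Figure D3:**
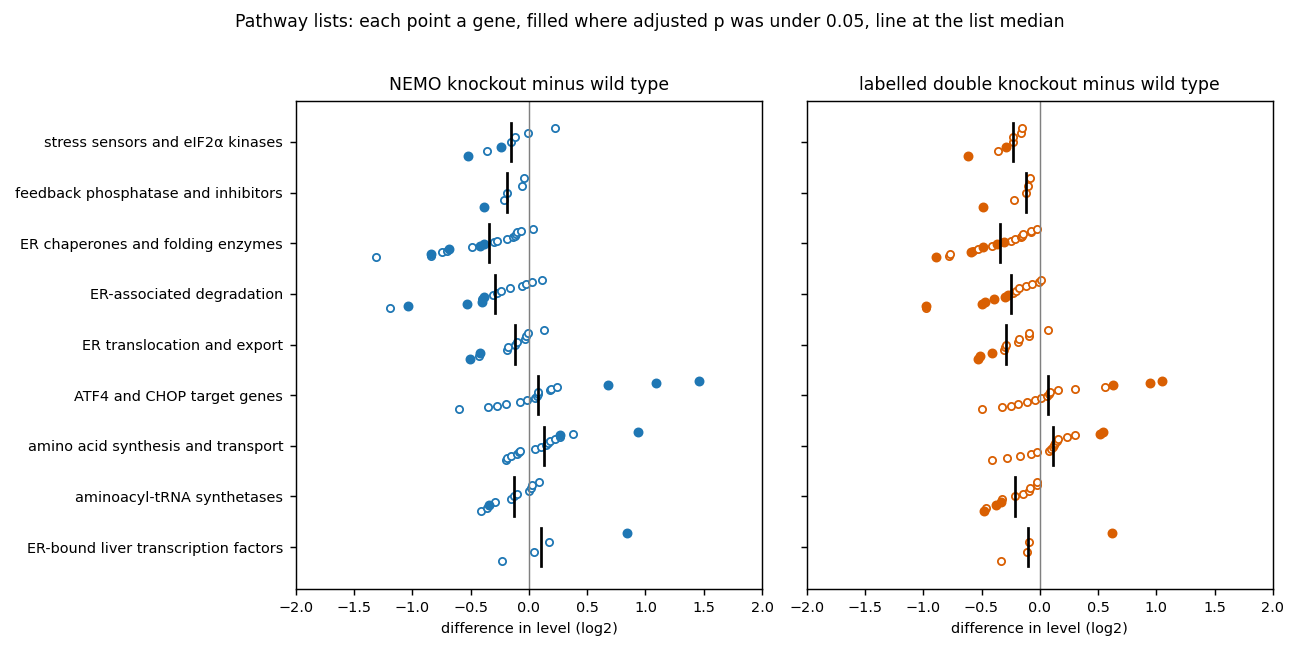
Difference from wild type (log2) of each measured gene in the 9 lists, NEMO knockout on the left and labelled double knockout on the right; filled points had an adjusted p under 0.05 and the line marks the list median. The medians of ER chaperones (-0.34 in both) and ER-associated degradation (-0.29 and -0.25) lie below 0, and those of the ATF4 and CHOP targets (0.073 and 0.069) near it.

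Of 7 measured sensors and eIF2α kinases, 2 were lower in both knockouts and 5 did not pass, beside 2.5% and 4.19% of all genes lower. Ern1, which encodes IRE1, was 10.23, 10.44 and 10.55 in wild type, 9.92, 9.94 and 9.78 in the NEMO knockout, and 9.64, 9.85 and 9.85 in the labelled double knockout. Every knockout array was below every wild type array, with differences of -0.52 (SE 0.10, limma adjusted p = 0.0113) and -0.62 (SE 0.10, adjusted p = 0.00431). Atf6 differed by -0.24 (adjusted p = 0.0454) and -0.29 (adjusted p = 0.0179). The Atf6 call in the NEMO knockout was lost in 13 of 17 alternatives, with adjusted p up to 0.146 (without wild type replicate 1), and that in the labelled double knockout in 3, up to 0.0643. The Ern1 call in the NEMO knockout was lost without NEMO knockout replicate 3 (0.0503). Eif2ak3, the PERK gene, differed by -0.12 and -0.36 and did not pass. Among 5 feedback genes, Dnajc3 (P58IPK, an inhibitor of eIF2α kinases and a BiP co-chaperone) was lower, at -0.39 (adjusted p = 0.0329) and -0.49 (adjusted p = 0.0103), the first call being lost in 9 of 17 alternatives. Ppp1r15a (GADD34, the ATF4-induced subunit of the eIF2α phosphatase) differed by -0.042 and -0.10.

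Of 18 ER chaperones and folding enzymes, 4 were lower in the NEMO knockout, 5 were lower in the labelled double knockout, and none was higher. The shares of all genes called lower were 2.5% and 4.19%. Ero1b, an oxidase that supplies disulfide bonds, was 9.43, 9.43 and 9.07 in wild type, 8.37, 8.52 and 8.53 in the NEMO knockout, and 8.66, 8.22 and 8.39 in the labelled double knockout. The groups were well apart, at -0.84 (SE 0.13, limma adjusted p = 0.00465) and -0.89 (SE 0.13, adjusted p = 0.00297). Hspa13, an HSP70 family member, was lower, at -0.69 (adjusted p = 0.0104) and -0.59 (adjusted p = 0.02), and Sil1, the nucleotide exchange factor of BiP, by -0.42 (adjusted p = 0.00401) and -0.31 (adjusted p = 0.0159). Pdia6, a disulfide isomerase, passed in the labelled double knockout (-0.37, adjusted p = 0.0457), and that call was lost in 10 of 17 alternatives. The Hspa13 call in the labelled double knockout was lost in 4, all of them fits without 1 array. The abundant ER proteins Hsp90b1 (-0.10 and -0.074), Calr (-0.11 and -0.15) and Canx (-0.064 and -0.073) did not pass. Larger decreases that did not pass either were those of Creld2 (-1.31 and -0.78), Sdf2l1 (-0.84 and -0.77), Manf (-0.75 and -0.57), Hyou1 (-0.70 and -0.53) and Dnajb11 (-0.49 and -0.41). For each of these, wild type replicate 3 was the lowest wild type array, for Creld2 at 9.66 beside 10.98 and 11.03.

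Of 14 measured genes of ER-associated degradation, in the NEMO knockout 4 were lower, in the labelled double knockout 6, and none was higher in either. Beside these counts, 2.5% and 4.19% of all genes were lower. Syvn1, the HRD1 ubiquitin ligase, was 10.75, 10.97 and 10.05 in wild type, 9.50, 9.69 and 9.46 in the NEMO knockout, and 9.79, 9.37 and 9.67 in the labelled double knockout. As for Hspa5 and Dnajb9, wild type replicate 3 was the array nearest the knockouts. The differences were -1.04 (SE 0.21, limma adjusted p = 0.0155) and -0.98 (SE 0.21, adjusted p = 0.0184), and these calls were lost in 3 and 5 of 17 alternatives (adjusted p up to 0.0654 and 0.0664). Its partner Sel1l was lower, at -0.53 (adjusted p = 0.0372) and -0.50 (adjusted p = 0.0388), each call being lost in 11 of 17 alternatives. Derl2, a channel component, was lower, at -0.40 (adjusted p = 0.00734) and -0.47 (adjusted p = 0.00314), and Selenos, which anchors the VCP segregase, by -0.39 in both (adjusted p = 0.0109 and 0.0105). No alternative lost the Derl2 and Selenos calls.

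Of 11 measured translocation and export genes, the signal peptidase subunits Spcs3 (-0.51 in both) and Spcs2 (-0.42 and -0.41) were lower in both knockouts in every alternative. Sec23b, a COPII coat protein, was lower in the labelled double knockout (-0.53, limma adjusted p = 0.0303), a call lost in 7 of 17 alternatives. Of 11 measured aminoacyl-tRNA synthetases, Mars1 was lower in both (-0.34 and -0.38, adjusted p = 0.0107 and 0.00552). Yars (-0.48, adjusted p = 0.029) and Iars (-0.33, adjusted p = 0.0375) were lower in the labelled double knockout only by call, and these were lost in 6 and 10 of 17 alternatives.

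Of 16 measured ATF4 and CHOP target genes, 3 were higher in both knockouts and 13 did not pass. Beside them, 6.78% and 6.81% of all genes were higher. The 3 encode cell death proteins, but Bbc3, which encodes the cell death protein PUMA, was not called (-0.08 and -0.04, limma adjusted p = 0.779 and 0.918). The secreted hormone Fgf21 (0.081 and 0.011) and the transcriptional regulators Nupr1 (0.18 and 0.088) and Cebpb (0.19 and 0.56) did not pass either. Tnfrsf10b, the death receptor for TRAIL and also a known p53 target, was 6.40, 6.56 and 6.77 in wild type, 7.49, 7.90 and 7.62 in the NEMO knockout, and 7.32, 7.74 and 7.81 in the labelled double knockout. No knockout array reached down to wild type, and the increases were 1.09 (SE 0.15, limma adjusted p = 0.0027) and 1.05 (SE 0.15, adjusted p = 0.00287). Casp12, a caspase associated with the ER, rose by 1.46 (adjusted p = 0.00743) and 0.95 (adjusted p = 0.0462), the second call being lost in 10 of 16 alternatives. Its wild type arrays read 5.11, 5.81 and 5.55, below the array medians of 6.47 to 6.58. The filter on dim probe sets removed this gene, so it had no value in that alternative. Bcl2l11, the BH3-only protein BIM, rose by 0.68 (adjusted p = 0.00949) and 0.63 (adjusted p = 0.0126). The rise in macrophage markers given above accompanied these increases, and its part in them was not tested.

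Of 16 measured amino acid genes, 2 were higher in both knockouts and 14 did not pass, beside 6.78% and 6.81% of all genes higher, and a count this small is not read as a change of the list. Aldh18a1, which opens proline synthesis, was 6.27, 6.49 and 6.26 in wild type, 7.04, 7.39 and 7.40 in the NEMO knockout, and 6.83, 7.03 and 6.70 in the labelled double knockout. The labelled double knockout lay between the others, with increases over wild type of 0.94 (SE 0.12, limma adjusted p = 0.00184) and 0.52 (SE 0.12, adjusted p = 0.0284). Between the knockouts the difference of -0.42 did not pass (adjusted p = 0.375). Pck2, the mitochondrial PEP carboxykinase, rose by 0.27 (adjusted p = 0.0386) and 0.54 (adjusted p = 0.0012). The Pck2 call in the NEMO knockout was lost in 12 of 17 alternatives, and the Aldh18a1 call in the labelled double knockout in 6. Among the ER-bound transcription factors Creb3l1 was higher in both (0.84 and 0.62, adjusted p = 0.00307 and 0.0122), and Creb3l3, the hepatocyte form, was not called (0.041 and -0.11).

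**Figure D4:**
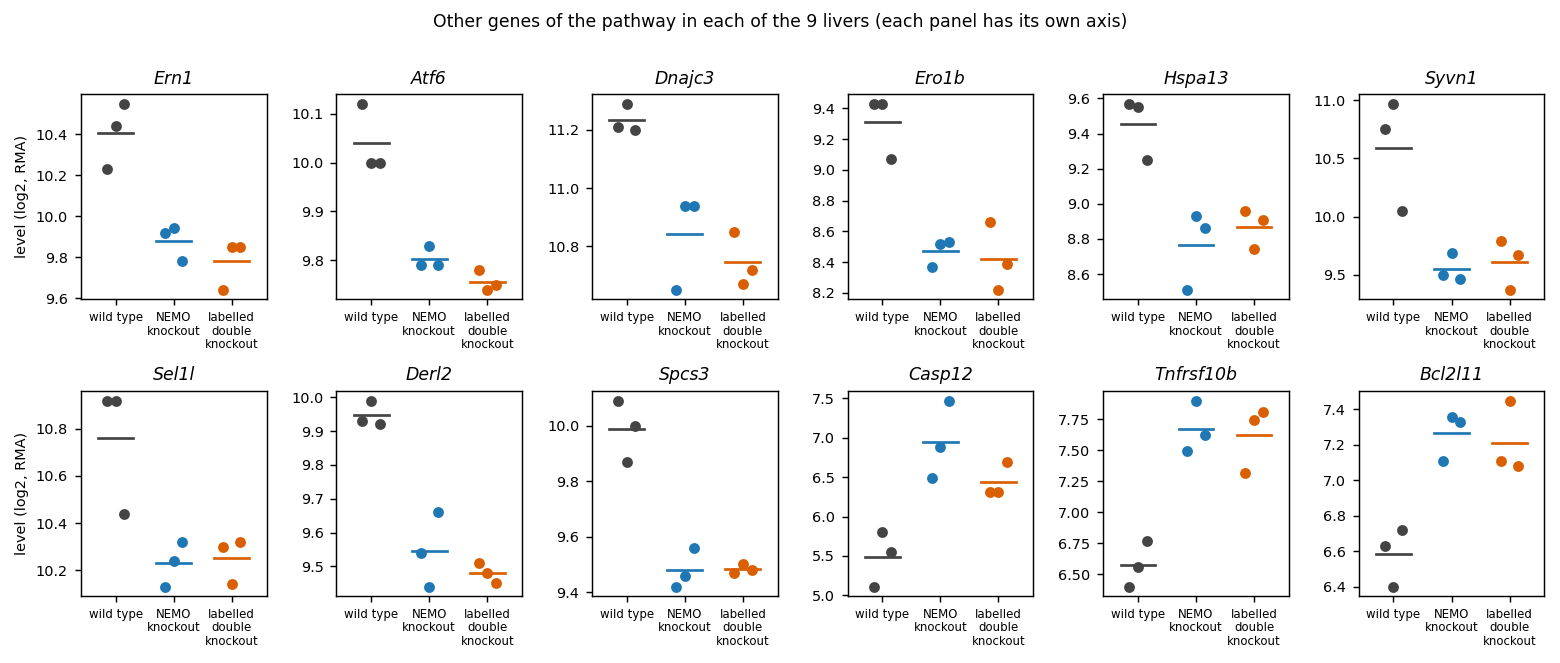
Level (log2, RMA) of 12 further genes of the pathway in the 9 livers by genotype; points are arrays and lines are group means of 3. Only genes called in both comparisons with wild type were drawn, so the panels do not stand for their lists. The sensor and ER machinery genes drawn (Ern1 to Spcs3) lie lower in both knockouts than in every wild type array, and Casp12, Tnfrsf10b and Bcl2l11 lie higher. Eif2ak3, Hyou1, Sdf2l1 and Creld2, of the same lists and not drawn, overlapped wild type in both knockouts.

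None of the 100 measured pathway genes was called between the knockout genotypes by limma. Eif2ak2, the eIF2α kinase PKR, differed by -0.37 (adjusted p = 0.362), Ddit4 by 0.76 (adjusted p = 0.818), Creld2 by 0.53 (adjusted p = 0.85), Ube2g2 by 0.39 (adjusted p = 0.557) and Creb3 by -0.26 (adjusted p = 0.403).

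The ERSE letters were not particular to Hspa5 among the pathway genes. A window was available for 76 of the 100 measured list genes, and the rest, Hspa13, Sil1 and Atf6 among them, could not be searched. Of 37 genes in RefSeq with the full letters in their window, 10 were members or genes of the lists, 3 of which were called lower in the NEMO knockout: Ero1b, Syvn1 and Dnajc3. The others were Hspa5, Calr, Canx, Creld2, Derl3, Hsp90b1 and Pdia6, so the same letters stood before genes with differences from -1.31 (Creld2, limma adjusted p = 0.1) to -0.064 (Canx). Of the 21 measured genes with ERSE, 14.3% were called lower in the NEMO knockout and 19.0% called so in the labelled double knockout, beside 2.5% and 4.19% of all genes. These were 3 and 4 genes, all of them from the pathway lists, and 1 gene with ERSE, Adcy3, was called higher in the NEMO knockout (0.36, limma adjusted p = 0.0464). Of the 9 measured genes with ERSE-II, 0 were called lower in the NEMO knockout, and Nucb1 (-0.26) and Rcl1 (-0.61) were called lower in the labelled double knockout. Of 565 measured genes with CARE, 2.12% and 3.72% were called lower and 7.08% in both were called higher, beside 6.78% and 6.81% of all genes higher. These shares are descriptions without a test. The stretches of the 3 called genes are shown to compare with Hspa5 above: Dnajc3 at chr14:118937812-118937860, Syvn1 at chr19:6046517-6046565 and Ero1b at chr13:12565667-12565715, all plus strand, the last with ERSE in reverse.
Dnajc3 ERSE: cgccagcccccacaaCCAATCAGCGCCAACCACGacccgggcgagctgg
Syvn1 ERSE: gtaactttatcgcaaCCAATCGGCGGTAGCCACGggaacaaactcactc
Ero1b ERSE: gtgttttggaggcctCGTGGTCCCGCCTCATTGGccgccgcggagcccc

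The genes most like Atf3 and Asns, the members with the largest differences in the NEMO knockout, were sought by Pearson r over the 9 arrays, as a description. The search covered 19833 probe sets annotated to 1 symbol. For Atf3 they were Kcna2 (r = 0.985), Ccdc120 (0.984) and Mthfd1l (0.976). They share its split between wild type and knockout, which follows from how they were picked. In the NEMO knockout Ccdc120 and Mthfd1l were called higher than wild type, and Kcna2 was not (0.23, limma adjusted p = 0.0506). For Asns they were Xlr (0.965), Psmd6 (0.950) and Mir217 (0.947), which share with Asns a high wild type replicate 2. The levels of Xlr (4.79 to 5.33) and Mir217 (2.76 to 3.23) were below the array medians of 6.47 to 6.58 and spanned a narrow range. Among the members themselves, correlations within groups, after each group mean was removed, ran from -0.835 (Xbp1 and Herpud1) to 0.755 (Trib3 and Chac1). Xbp1 and its known target Dnajb9 correlated at -0.249 within groups and at 0.756 over all arrays, and Hspa5 and Dnajb9 at 0.529 and 0.796.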

How the data were processed

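The authors deposited a table of log2 values with 1 row per probe set; the submitters' processing notes name RMA, and the log base was inferred from RMA and the range of the values. RMA's quantile step hides a general change of all RNA. The version of RMA is not given in the sources used here. Of 35556 probe sets, 6617 with unannotated low identifiers were taken as controls and left out. Genes were named from probe sets annotated to 1 symbol, except Cdkn1a. limma 3.58.1 (R 4.3.3, lmFit and eBayes) was fitted to all 9 arrays with 1 mean per group, Benjamini-Hochberg adjusted over 28939 probe sets and tested on simulated data; called means adjusted p under 0.05. The members and lists were chosen with earlier results of these data known. Named genes were all members, Ikbkg and Cdkn1a, and the 3 genes most correlated with each of 2 members. From each list, up to 4 called genes with the largest difference were named, or the largest uncalled one. Eif2ak3, Ppp1r15a, Hsp90b1, Calr, Canx, Bbc3, Fgf21, Nupr1, Cebpb, Creb3l3, the markers and the genes with ERSE or ERSE-II were added after their values were seen. Sdf2l1, Manf and Hyou1 were added in the same way. Same-numbered arrays correlated at -0.116 to 0.391 in their deviations from group means, and arrays with different numbers at -0.301 to 0.183. The highest values were those between the knockout groups for replicate 1 (0.391) and replicate 3 (0.247). The replicate numbers were not taken to pair samples, and whether they mark samples processed together is not given in the sources used here. Alternatives left out each array in turn, fitted only the groups compared, used the replicate number as a block, array weights, centring, cyclic loess, a filter on dim probe sets, a trended robust prior or all rows. The number of arrays limits the precision.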

Additional observations from a re-analysis of the deposited data

How the results depend on the processing

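The Atf4 and Atf3 calls against wild type held in all 17 alternatives, and the Dnajb9 call in the labelled double knockout too. Members called in the NEMO knockout were 5 with centred arrays, without the dimmer probe sets and with the trended, robust prior, and 2 to 4 with each array left out; in the labelled double knockout they were 3 to 4, and between the knockouts 0. Probe sets called were 1382 (without NEMO knockout replicate 3) to 2335, 1601 (without labelled double knockout replicate 3) to 2720, and 10 to 44 between the knockouts with each array left out. Between the knockouts 57 were called, but 23 with only these groups fitted, 31 with centred arrays and 28 with control probe sets included. With the replicate block the counts were 2318, 2775 and 18, and 3, 4 and 0 members were called.

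Directions turned only for differences that were not called, and for these the cause was not tested; ranges are over all alternatives. In the NEMO knockout Ddit3 was -0.046 with centred arrays, -0.0058 with array weights, and -0.046 to 0.069 with arrays left out, and Trib3 ran from -0.17 to 0.02. In the labelled double knockout Ddit3 ran from -0.16 to 0.061, Asns from -0.71 to 0.11 and Chac1 from -0.17 to 0.049. Between the knockouts Atf4 ran from -0.011 to 0.065, Ddit3 from -0.18 to 0.044, Trib3 from -0.24 to 0.012, Chac1 from -0.0079 to 0.22 and Ikbkg from -0.17 to 0.0054. The counts of list genes under these settings were added after seeing the data. The mean over probe sets of a gene equals the brightest, since each member has 1 probe set.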
